A study of Mus musculus with 24 samples.

Results

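The proteasome subunit genes were described in the hippocampus (HIP) and entorhinal cortex (EC) of Ts65Dn and wild-type (wt) mice. Members were the protein-coding genes of the GRCm38 annotation whose symbol starts with Psma, Psmb, Psmc, Psmd or Psme and whose mean raw count over all libraries was at least 10. The rule found 45 genes among the 55385 genes of the count table, and all 45 protein-coding symbol matches passed the count minimum. They comprised 7 alpha and 7 constitutive beta genes of the 20S core, 3 immune subunits (Psmb8, Psmb9, Psmb10) and 2 tissue-restricted core subunits (Psma8, Psmb11). The 19S cap contributed 6 ATPase genes, 11 non-ATPase genes and 3 assembly chaperones with a Psmd symbol (Psmd5, Psmd9, Psmd10). The remaining members were 5 activator genes (Psme1, Psme2, Psme2b, Psme3, Psme4) and Psmc3ip, which matches by symbol but encodes a meiotic recombination factor and no proteasome subunit.

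RNA-Seq was performed on 24 libraries, HIP and EC from each of 6 Ts65Dn and 6 wt mice. All mice were males of 5 to 6 months on a mixed B6C3B background, wt mice were littermates of the Ts65Dn mice, and no mouse received a treatment that the labels name. Ts65Dn mice carry in addition a small translocation chromosome that joins the distal part of mouse chromosome 16 to the centromere and proximal part of chromosome 17. They therefore have an additional copy of many genes related to human chromosome 21, and also of chromosome 17 genes unrelated to it. None of the 45 members lies in the triplicated segments.

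Library totals ranged from 23128589 to 40476492 counts, with a median of 28597506. As a check of the labels, triplicated chromosome 16 genes had a median fold over the wt mean of 1.43 to 1.53 in 5 Ts65Dn HIP libraries and of 1.46 to 1.53 in 5 Ts65Dn EC libraries. In the mouse labelled Ts65Dn replicate 3 this fold was 1.02 in HIP and 0.998 in EC, beside 0.985 to 1.012 in wt libraries. The mouse kept its label, and the counts of members called are also given without it, with the members that then lose their call. Among region markers, 4 of 5 hippocampal markers (Prox1, Dsp, Grik4, Bok) were higher, 1 (Wfs1) was lower, and 5 of 6 cortical markers were lower in HIP than in EC of wt mice.

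The proteasome degrades proteins tagged with ubiquitin. Its 20S core is a barrel of alpha and beta rings, in which Psmb5, Psmb6 and Psmb7 carry the chymotrypsin-like, caspase-like and trypsin-like active sites. The 19S cap recognises ubiquitin, removes it and unfolds the substrate with a ring of ATPases. In cells exposed to interferon, Psmb8, Psmb9 and Psmb10 take the places of Psmb5, Psmb6 and Psmb7 to form the immunoproteasome, and Psme1 and Psme2 form the 11S activator, which together favour peptides for MHC class I. Transcription of the constitutive genes is raised by Nfe2l1, which binds antioxidant response elements, and neurons depend on the proteasome for synaptic protein turnover.

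Promoter windows of RefSeq on GRCm38.p6 (250 bases before the annotated start) were present for 38 of the 45 members. The windows below are those of 2 constitutive catalytic subunits, of the immune subunit with the largest regional difference and of the large 19S scaffold subunit Psmd2. Each runs 5′ to 3′ on the gene's strand, starts 150 bases before the start site and leaves out annotated exon. Capitals mark the core of the antioxidant response element, TGACNNNGC, and the windows of Psmb10 and Psmd2 held none of the searched motifs.
Psmb5, chr14:54618023-54618145, minus strand: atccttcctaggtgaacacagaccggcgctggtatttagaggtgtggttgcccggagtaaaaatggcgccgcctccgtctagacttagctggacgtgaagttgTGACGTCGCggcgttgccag
Psmb6, chr11:70525207-70525356, plus strand: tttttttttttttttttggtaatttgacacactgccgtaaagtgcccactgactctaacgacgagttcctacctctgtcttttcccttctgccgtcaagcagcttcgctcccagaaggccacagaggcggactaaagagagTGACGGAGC
Psmb10, chr8:105938445-105938542, minus strand: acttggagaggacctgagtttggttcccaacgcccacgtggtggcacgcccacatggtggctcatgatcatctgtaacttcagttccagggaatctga
Psmd2, chr16:20651502-20651651, plus strand: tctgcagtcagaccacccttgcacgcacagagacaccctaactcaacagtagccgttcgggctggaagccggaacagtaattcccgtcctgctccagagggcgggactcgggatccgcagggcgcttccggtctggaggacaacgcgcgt

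Motifs were searched on both strands of the 250 bases, annotated exon included. The windows of Psma4, Psmb8, Psmb9, Psmb11, Psmd13 and Psme2b lay wholly in annotated exon. TGACNNNGC occurred in 5 of 38 members (Psmb5, Psmb6, Psmc6, Psmd9, Psmd12) and in 10.2% of all 32851 windows. The match began 47 bases before the start of Psmb5 and 9 bases before that of Psmb6. The interferon response element core, a pair of GAAA repeats separated by 2 bases, occurred in 3 members (Psmb3, Psmd4, Psmd9) and in 2.98% of all windows. The STAT element TTCNNNGAA occurred in 1 member, Psmb8, and in 7.02% of all windows. This match lay 97 bases before the RefSeq start of Psmb8 but within an annotated exon of the same gene. The CCAAT box occurred in 15 members and in 33.8% of all windows. These matches are descriptions of letters and not of bound sites.

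Levels between genes were compared as CPM (library-scaled counts, after TMM scaling) per kilobase of exons, averaged over the 24 libraries. The 31 constitutive core and cap subunits ranged from 6.86 (Psmd11) to 115 (Psmc5, a 19S ATPase). Median levels per kilobase were 48.1 for the ATPases, 42.7 for the constitutive beta ring, 27.5 for the non-ATPases and 24.9 for the alpha ring. These medians depend on the length used, and with the longest annotated transcript in place of the union of exons they were 58.4, 54.7, 51.4 and 45.3. The activators ranged from 4.66 (Psme2b) to 35.5 (Psme3, which forms a nuclear activator).

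The immune subunits had unlike levels. Psmb10 was at 18.3 CPM per kilobase, beside 16.9 for its constitutive counterpart Psmb7. Psmb8 was at 0.812 and Psmb9 at 0.438, beside 43.0 for Psmb5 and 46.8 for Psmb6. In wt HIP the level of Psmb8 per kilobase was 1.76% ± 0.355 of that of Psmb5 (mean ± SD, n = 6) and that of Psmb9 was 0.954% ± 0.200 of that of Psmb6. That of Psmb10 was 90.7% ± 9.34 of that of Psmb7 in wt HIP and 124% ± 4.64 in wt EC. These ratios also depend on the length used. With the longest annotated transcript the means were 3.13% for Psmb8, 0.625% for Psmb9 and 98.2% for Psmb10 in wt HIP, and 135% for Psmb10 in wt EC. The tissue-restricted subunits Psma8, known from testis, and Psmb11, known from thymus, were at 0.155 and 0.101.

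**Figure D1:**
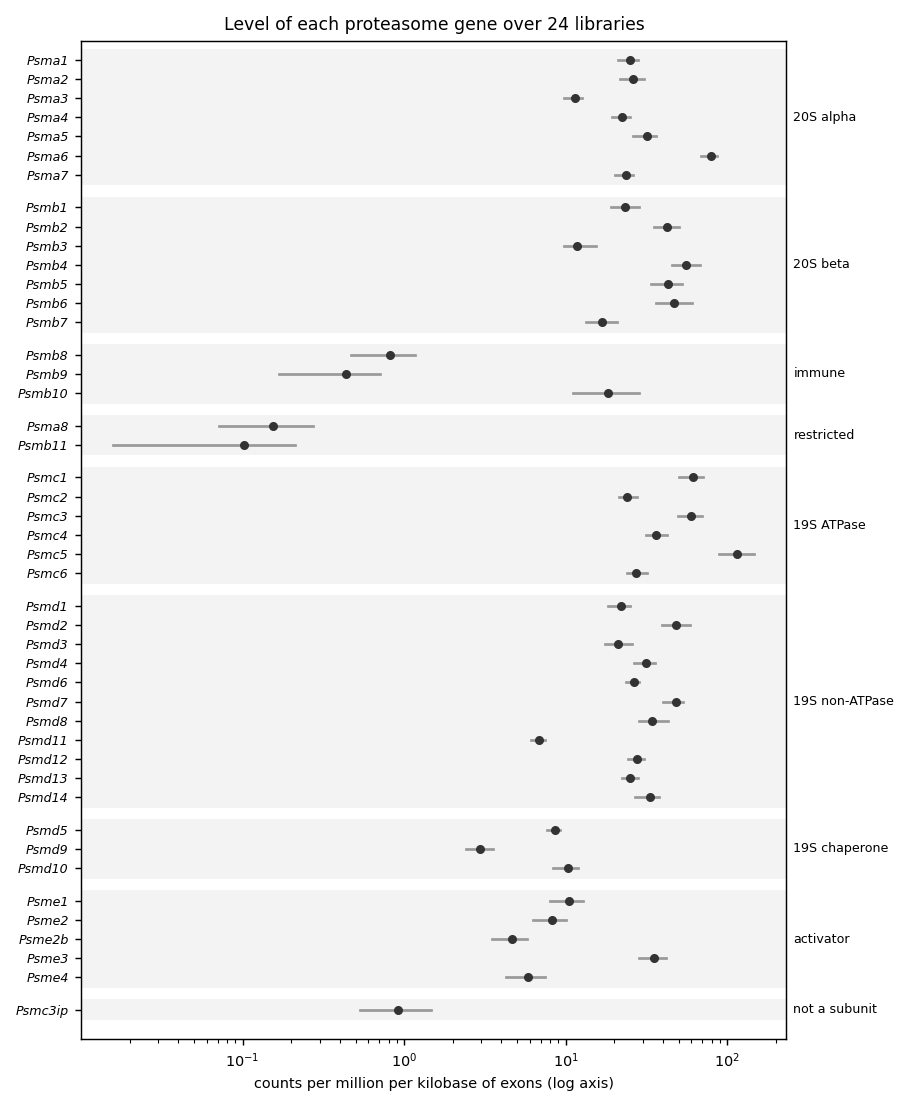
Level of each of the 45 genes in CPM per kilobase of exons (x axis, log scale), with genes on the y axis grouped by role. Points are means and grey lines the range over the 24 libraries. Psmc5 is highest at 115, Psmb10 lies among the constitutive subunits at 18.3, and Psmb8, Psmb9, Psma8 and Psmb11 lie below 1.

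Several members share sequence or position with other genes, which limits their counts. Of the 50-base windows of the longest transcript, 69.3% in Psme2b, 59.3% in Psme2, 57.1% in Psmb5 and 55.4% in Psma5 occurred in transcripts of another gene, so that reads of 50 bases could be lost or assigned to either copy. For Psmb5 and Psma5 the other transcripts include pseudogenes. In 11 of 45 members more than 10% of windows were shared and in 21 none were. Psmb9 overlaps Tap1, Psmb8 overlaps Gm20496 and Psmb10 overlaps Gm16156, in each case on opposite strands, and the strand setting of the counting is not given in the sources used here.

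More proteasome genes were lower than higher in HIP compared with the EC of the same mouse. In wt, 23 of 45 members were lower and 3 higher, where 30.3% of all 17196 genes tested were lower and 31% higher, by edgeR's quasi-likelihood test with a term for the mouse and a Benjamini-Hochberg adjusted p under 0.05. In Ts65Dn, 19 of 44 members tested were lower and 1 was higher, where 25.7% of 17314 genes were lower and 26.6% higher. The median log2 fold change of the members (HIP over EC) was -0.13 in wt and -0.14 in Ts65Dn, beside 0.0016 and 0.0039 over all genes tested. Lower values in HIP in all 6 mice were found for 20 members in wt, where 26.4% of all genes showed this, and for 23 members in Ts65Dn, where 24% did. The regions did not overlap for 14 members in wt, where 34.0% of all genes did not, and for 8 members in Ts65Dn, where 27.2% did not. Without the mouse labelled Ts65Dn replicate 3 these numbers in Ts65Dn were 23 members lower in all 5 mice, where 26.2% of all genes were, and 8 members without overlap, where 31.8% were.

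The count in Ts65Dn depended on single mice. Without the mouse labelled Ts65Dn replicate 3 it was 13 lower and 1 higher, where 4025 of 17344 genes tested were lower and 4275 higher. Without replicate 5 it was 11 lower and 2 higher, and the share over all genes in that fit is not given here. The 6 calls lost without replicate 3 were Psmb3, Psmc4, Psmd1, Psmd3, Psmd4 and Psmd7, then at -0.098 to -0.13 (edgeR adjusted p from 0.0536 to 0.113), and Psmb6 and Psmc3 were lost with other mice left out. The remaining 11 lower calls in Ts65Dn, and Psme4, were made with each of the 6 mice left out in turn, as were 20 of 23 lower calls in wt, all but Psma6, Psmd14 and Psmb3 (not called without wt replicate 2). Of the lower calls, 18 were shared, which is 78.3% of those in wt and 94.7% of those in Ts65Dn. The 5 genes lower in wt and not called in Ts65Dn were Psma2, Psma6, Psmb7, Psmd14 and Psme1, and Psmc4 was called in Ts65Dn alone. All of these were lower in HIP in both genotypes by fold change, and the difference between genotypes is tested below.

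**Figure D2:**
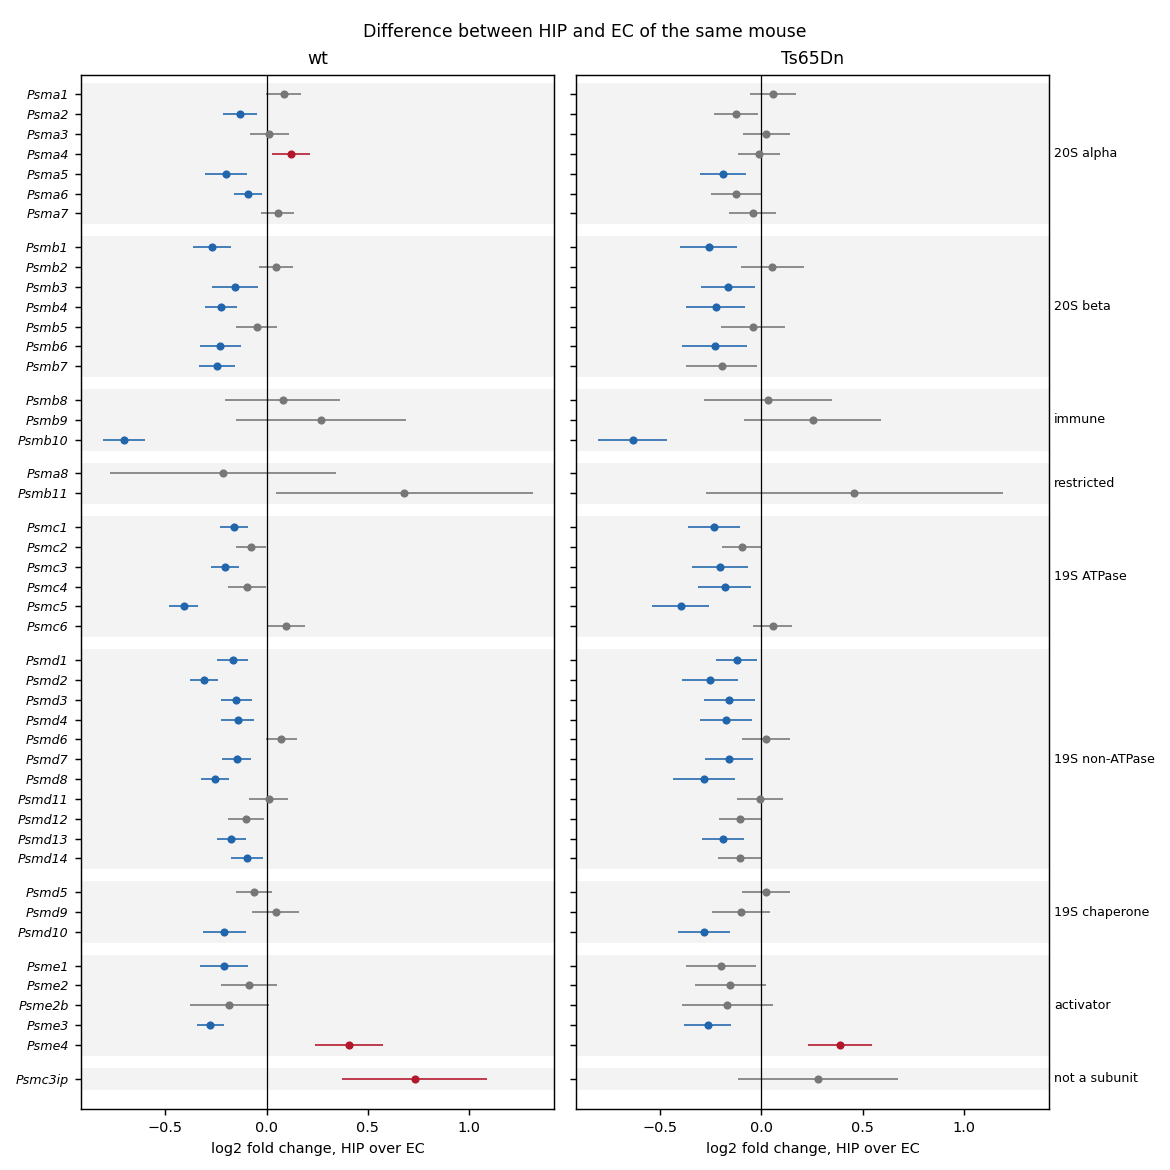
Log2 fold change of HIP over EC (x axis) with its 95% confidence interval for each member (y axis, grouped by role) in wt (left) and Ts65Dn (right). Blue marks genes called lower, red genes called higher and grey genes not called. Most blue points lie in the beta ring and the 19S cap, Psmb10 is farthest to the left in both panels at -0.71 and -0.64, and Psme4 is red in both.

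The sum of the 31 constitutive core and cap genes described the same difference by mouse. In wt HIP it was 2587 CPM at the lowest, 2685 at the median and 2741 at the highest, and in wt EC 2836, 2951 and 3093. In Ts65Dn HIP it was 2395, 2686 and 2773, and in Ts65Dn EC 2765, 3013 and 3097. The groups of 6 did not overlap between regions in wt, and in Ts65Dn the highest HIP library lay just above the lowest EC library. The ratio of HIP to EC ranged from 0.859 to 0.944 in wt mice and from 0.773 to 0.963 in Ts65Dn mice, and it was below 1 in 6 of 6 mice of each genotype. The 0.773 was the mouse labelled Ts65Dn replicate 3, and the other 5 Ts65Dn mice lay from 0.883 to 0.963.

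**Figure D3:**
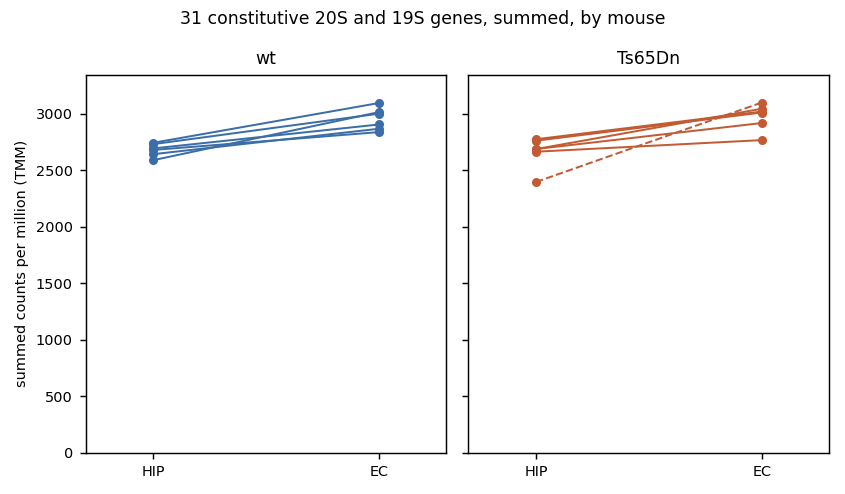
Summed CPM (y axis, from 0) of 31 constitutive 20S and 19S genes in HIP and EC, with a line for each mouse, in wt (left) and Ts65Dn (right). The dashed line is the mouse labelled Ts65Dn replicate 3. All 12 lines rise from HIP to EC, and the dashed line starts lowest, at 2395.

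In the alpha ring, which forms the gate of the core, 3 of 7 genes were lower in wt (Psma5, Psma2, Psma6) and Psma4 was higher, by 0.12 ± 0.04 (log2, ± SE, adjusted p = 0.0268). The calls of Psma6 and Psma4 were not stable, since leaving out 1 mouse at a time kept them in 1 and 2 of 6 fits, and DESeq2 called neither (adjusted p = 0.0751 and 0.0846). In Ts65Dn only Psma5 was called among the 7, at -0.19 ± 0.05 (adjusted p = 0.00953). The structural and catalytic beta ring had 5 of 7 genes lower in wt (Psmb1, Psmb3, Psmb4, Psmb6, Psmb7) and 4 of 7 in Ts65Dn, without Psmb7. Psmb3 in Ts65Dn was called in 1 of 6 such fits and not by DESeq2 (adjusted p = 0.0781). Psmb1 differed by -0.27 ± 0.04 in wt (adjusted p = 0.000258) and by -0.26 ± 0.06 in Ts65Dn (adjusted p = 0.00570). Psmb4 was at -0.22 ± 0.04 in wt (adjusted p = 0.000316) and -0.23 ± 0.07 in Ts65Dn (adjusted p = 0.0151). Psmb2 was not called, at 0.048 and 0.053.

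Of the catalytic subunits Psmb6 was called lower in both genotypes, Psmb7 in wt and Psmb5 in neither. Psmb5 was 31.8 CPM at the lowest, 35.9 at the median and 45.8 at the highest in wt HIP, and 30.2, 38.2 and 47.4 in wt EC. The regions overlapped nearly throughout, and the log2 difference was -0.048 in wt (95% interval -0.15 to 0.053) and -0.041 in Ts65Dn (-0.20 to 0.12). Psmb6 was 74.6, 82.5 and 87.9 CPM in wt HIP and 86.8, 93.8 and 113 in wt EC, a difference of -0.23 ± 0.05 (adjusted p = 0.00142). The difference of Psmb6 in Ts65Dn was -0.23 ± 0.07 (adjusted p = 0.0212), -0.15 without replicate 3 (adjusted p = 0.0410), and not called without replicate 5, at -0.20 (adjusted p = 0.0744). Psmb7 was 48.0, 50.9 and 58.3 CPM in wt HIP and 53.0, 59.9 and 71.3 in wt EC, with -0.24 ± 0.04 (adjusted p = 0.000396) in wt and -0.20 ± 0.08 (adjusted p = 0.0592) in Ts65Dn. The Ts65Dn value of Psmb7 lay near the threshold, since DESeq2 called it lower (adjusted p = 0.0456), as did edgeR after removal of a trend on GC content and gene length, at -0.33 (adjusted p = 0.0184), while without replicate 3 it was -0.12 (adjusted p = 0.163). The windows of Psmb5 and Psmb6 printed above both hold the antioxidant response element core.

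The cap genes were lower in 3 of 6 ATPases and 8 of 11 non-ATPases in wt, and in 4 of 6 and 7 of 11 in Ts65Dn. Psmc5 was 132, 140 and 144 CPM in wt HIP and 174, 183 and 196 in wt EC, with no overlap, at -0.41 ± 0.03 (adjusted p = 1.71e-06). In Ts65Dn the values were 125, 138 and 143 CPM in HIP and 165, 179 and 205 in EC, at -0.40 ± 0.06 (adjusted p = 0.000443). Without the mouse labelled Ts65Dn replicate 3 the difference of Psmc5 was -0.33 (adjusted p = 0.000251). Psmc3 was at -0.21 ± 0.03 in wt (adjusted p = 0.000194) and -0.20 ± 0.06 in Ts65Dn (adjusted p = 0.0196), with a call in 4 of 6 fits that left out a mouse (not without Ts65Dn replicate 1 or 5). Psmc1 was at -0.16 ± 0.03 (adjusted p = 0.00107) and -0.24 ± 0.06 (adjusted p = 0.00616). Psmc6 was not called, at 0.097 ± 0.04 in wt (adjusted p = 0.0685) and 0.055 ± 0.04 in Ts65Dn (adjusted p = 0.317).

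Psmd2, with Psmd1 one of the large scaffold subunits that bind ubiquitin carriers, was 166, 174 and 183 CPM in wt HIP and 207, 215 and 220 in wt EC. The regions did not overlap, at -0.31 ± 0.03 (adjusted p = 1.23e-05). In Ts65Dn it was 160, 182 and 191 in HIP and 196, 215 and 237 in EC, at -0.25 ± 0.06 (adjusted p = 0.00622), and at -0.19 without replicate 3 (adjusted p = 0.00631). Psmd8 was at -0.25 ± 0.03 in wt (adjusted p = 4.49e-05) and at -0.29 ± 0.07 in Ts65Dn (adjusted p = 0.00590). Psmd13 was at -0.17 ± 0.03 (adjusted p = 0.000763) and -0.19 ± 0.05 (adjusted p = 0.00588). Psmd1, Psmd3, Psmd4 (a ubiquitin receptor) and Psmd7 were also called in both genotypes, at -0.12 to -0.18, and Psmd14 (a deubiquitinase) in wt alone, while Psmd6, Psmd11 and Psmd12 were called in neither. In Ts65Dn, Psmd1, Psmd3, Psmd4 and Psmd7 kept their call in 1, 2, 2 and 3 of 6 fits that left out a mouse, and Psmd14 in wt in 2 of 6 (DESeq2 adjusted p = 0.0818). Among the assembly chaperones Psmd10 was lower in both genotypes, at -0.21 ± 0.05 (adjusted p = 0.00317) and -0.28 ± 0.06 (adjusted p = 0.00232), and Psmd5 and Psmd9 were not called.

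Among the activators Psme4 was higher and Psme3 lower in both genotypes. Psme4, which encodes the activator PA200, was 52.3 CPM at the lowest, 59.0 at the median and 62.7 at the highest in wt HIP and 36.9, 41.7 and 52.2 in wt EC. Every HIP library lay above every EC library, at 0.41 ± 0.08 (adjusted p = 0.000809). In Ts65Dn it was 49.9, 53.8 and 58.6 in HIP and 35.8, 40.3 and 49.2 in EC, also without overlap, at 0.39 ± 0.07 (adjusted p = 0.00106). It was the one member called higher in both genotypes. Psme3 was at -0.28 ± 0.03 (adjusted p = 2.28e-05) and -0.27 ± 0.05 (adjusted p = 0.00181). Psme1 was at -0.21 ± 0.05 in wt (adjusted p = 0.00578) and at -0.20 ± 0.08 in Ts65Dn (adjusted p = 0.0526), and Psme2 was not called, at -0.085 and -0.16. Psmc3ip, the recombination factor, was higher in wt at 0.73 ± 0.16 (adjusted p = 0.00259) and at 0.28 ± 0.18 in Ts65Dn (adjusted p = 0.213), from 27 to 104 counts a library.

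Among the immune subunits Psmb10 was called in both genotypes and Psmb8 and Psmb9 in neither. Psmb10 was 18.9 CPM at the lowest, 23.8 at the median and 27.0 at the highest in wt HIP and 33.5, 37.4 and 44.6 in wt EC. No HIP library reached the lowest EC library, at -0.71 ± 0.05 (adjusted p = 6.44e-07), which is 0.613-fold. In Ts65Dn the values were 21.5, 24.9 and 27.3 in HIP and 34.6, 36.1 and 48.2 in EC, again without overlap, at -0.64 ± 0.08 (adjusted p = 6.69e-05) and -0.56 without replicate 3 (adjusted p = 6.7e-05). Psmb8 was 1.59, 2.69 and 2.81 CPM in wt HIP and 1.82, 2.30 and 3.19 in wt EC, overlapping, at 0.079 (95% interval -0.21 to 0.36). Psmb9 was 1.21, 1.44 and 1.99 in wt HIP and 0.613, 1.36 and 1.58 in wt EC, at 0.27 (95% interval -0.15 to 0.69). The lowest wt EC library of Psmb9, replicate 4, moved this value, which was 0.13 without that mouse and 0.13 to 0.36 over the 6 mice left out in turn. At 17 to 134 counts a library these intervals of Psmb8 and Psmb9 are wide, and differences within them were not excluded.

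**Figure D4:**
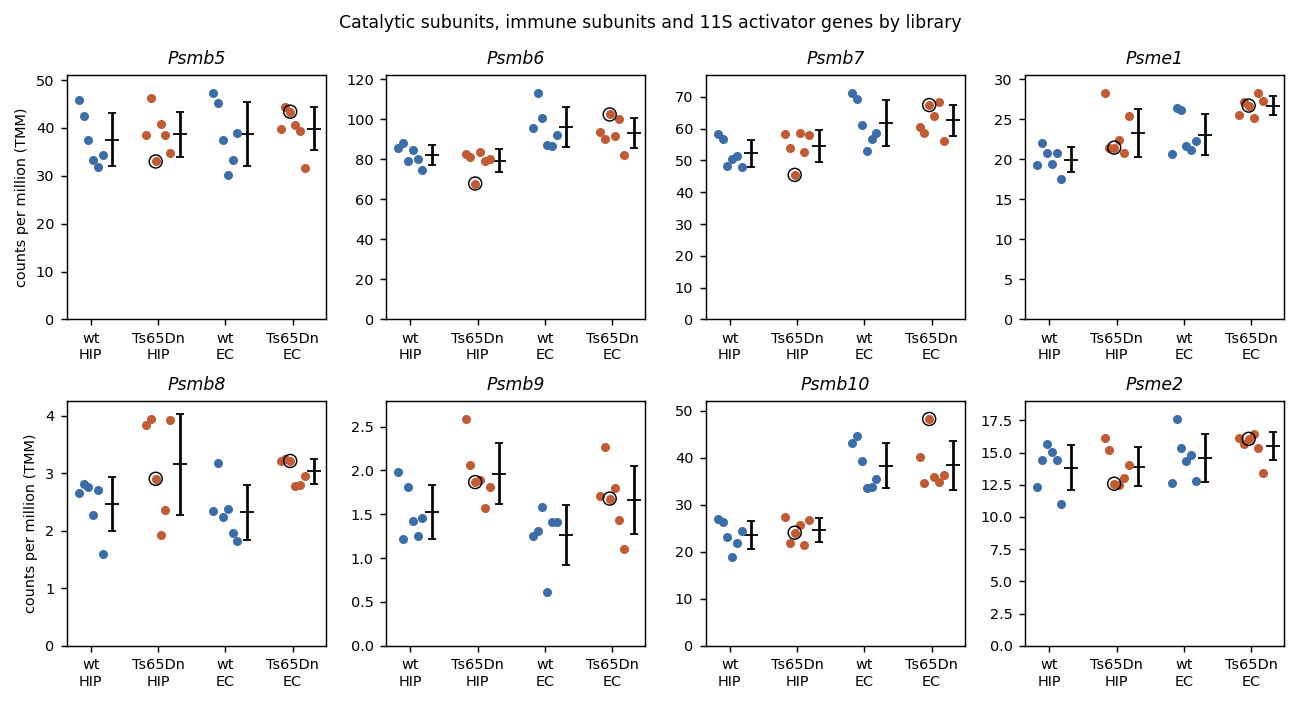
CPM (y axes, from 0) of 8 genes in each library by group, with 6 libraries a group. Blue points are wt and orange points Ts65Dn, black bars are mean ± SD, and the circled point is the mouse labelled Ts65Dn replicate 3. Psmb10 lies lower in HIP than in EC in both genotypes, Psmb5 overlaps throughout, and Psmb8 and Psmb9 stay at or below 3.95.

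Genes that assemble or assist the proteasome differed in the same direction in part. Of 24 measured assembly and associated factors, 15 were lower and 1 higher in HIP of wt mice, where 30.3% of all genes tested were lower and 31% higher. In Ts65Dn 11 were lower and 0 higher, where 25.7% and 26.6% were. The 1 higher factor is not among those named here. Pomp, which assembles the beta ring, was at -0.46 ± 0.04 in wt (adjusted p = 2.97e-06) and -0.39 ± 0.07 in Ts65Dn (adjusted p = 0.00105). Psmf1 (an inhibitor) was at -0.47 and -0.39, Ubqln4 (a shuttle factor) at -0.56 and -0.50, and Akirin2 (nuclear import of the proteasome) at -0.47 and -0.40. Usp14 and Uchl5 (deubiquitinases of the cap) were at -0.34 and -0.27 and at -0.36 and -0.31, and Vcp (a segregase) at -0.28 and -0.32, all called lower in both genotypes.

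The 8 genes listed for proteasome transcription, not all of them transcription factors, moved both ways. In wt 3 were higher and 3 lower, where 31% and 30.3% of all genes tested were. In Ts65Dn 4 were higher and 2 lower, where 26.6% and 25.7% were. Nfe2l1 was lower in HIP, with 314 to 348 CPM against 397 to 421 in wt, at -0.31 ± 0.04 (adjusted p = 2.71e-05) and at -0.28 ± 0.05 in Ts65Dn (adjusted p = 0.000503). Nfe2l2, the stress-responsive relative, was higher, at 0.52 ± 0.07 (adjusted p = 8.49e-05) and 0.53 ± 0.10 (adjusted p = 0.000924). Sesn2 and Ddi2, the protease that activates Nfe2l1, were also called higher and Mafg lower in both, with Ddi2 called in 3 of 6 fits that left out a mouse in each genotype and Mafg in 2 of 6 in Ts65Dn. In the MHC class I list 6 of 12 were lower (Tapbpl, Canx, Calr, Tapbp, B2m, Pdia3) and 2 higher (Nlrc5, Tap2) in wt, and 4 were lower and 1 higher in Ts65Dn. Of 12 interferon signalling genes, 4 were higher and 2 lower in wt and 5 higher and 1 lower in Ts65Dn, led by Tyk2 at 0.99 and 0.76. The counts of both lists stand beside the same shares of all genes tested.

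Cell type markers also differed between the regions. Over all genes tested, 31% were called higher and 30.3% lower in HIP of wt, and 26.6% and 25.7% in Ts65Dn. In bulk tissue, fewer cells of a type and less RNA per cell cannot be told apart. The summed level of 5 oligodendrocyte markers was 6320 to 8669 CPM in wt HIP and 1272 to 2529 in wt EC, and all 5 were called higher in both genotypes. The summed level of 5 neuron markers was 6217 to 6987 in wt HIP and 7795 to 9051 in wt EC, with 4 of 5 lower in wt and 3 of 5 in Ts65Dn. Microglia markers were lower in 10 of 10 in wt and 7 of 10 in Ts65Dn, with summed levels of 515 to 585 in wt HIP and 538 to 770 in wt EC, and endothelial markers were lower in 6 of 6 in each genotype. The 5 choroid plexus markers were higher in HIP, with sums of 87.3 to 4828 in wt HIP and 11.5 to 48.9 in wt EC. Astrocyte markers moved both ways, with 3 of 5 higher (Gfap, Gja1, Aqp4) and 2 lower in each genotype. Of 6 leukocyte markers 2 could be tested, and Cd4 was lower in both genotypes. No marker on these lists was at 0 in every library, and the part of cell composition in the regional difference of the proteasome genes was not tested.

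The second question was whether the extra chromosome altered proteasome expression. No member was called between Ts65Dn and wt in either region by edgeR's quasi-likelihood test. In HIP 0 of 44 members were called, where 1.04% of 17355 genes were, and 8 had an unadjusted p under 0.05, where 14.8% of all genes did. In EC 0 of 44 were called, where 2.5% of 17049 genes were, and 8 had an unadjusted p under 0.05, where 19% did. DESeq2 called Psmc6 lower in both regions and Psmd3 higher in EC. Over all genes DESeq2 called 662 of 17355 in HIP and 1141 of 17049 in EC. The median log2 fold change of the members (Ts65Dn over wt) was 0.0049 in HIP and 0.0006 in EC, beside 0.0047 and 0.0046 over all genes tested. Without the mouse labelled Ts65Dn replicate 3 no member was called in either region. In those fits 318 of 17452 genes were called in HIP and 480 of 17229 in EC.

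Psmc6, a 19S ATPase, had the lowest adjusted p in HIP. It was 96.8 CPM at the lowest, 105 at the median and 111 at the highest in wt HIP and 86.8, 89.1 and 101 in Ts65Dn HIP. Below the wt range lay 5 of 6 Ts65Dn libraries, at -0.18 ± 0.05 (edgeR adjusted p = 0.0960, DESeq2 adjusted p = 0.0174). In EC it was 89.6, 96.6 and 104 in wt and 84.2, 88.2 and 92.0 in Ts65Dn, at -0.15 ± 0.05 (edgeR adjusted p = 0.111, DESeq2 adjusted p = 0.0367). After removal of a trend on GC content and gene length the differences of Psmc6 were -0.043 in HIP and 0.051 in EC, so that the direction in EC turned. Without Ts65Dn replicate 5 the HIP difference was called, at -0.21 (adjusted p = 0.0442).

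Psmd3, a non-ATPase subunit, had the lowest adjusted p in EC. It was 97.4, 105 and 108 CPM in wt EC and 111, 116 and 128 in Ts65Dn EC, at 0.17 ± 0.04 (edgeR adjusted p = 0.0632, DESeq2 adjusted p = 0.00948). It was the 1 member of 44 whose groups did not overlap in EC, with or without replicate 3, where 2.42% of all genes did not overlap with that mouse and 4.02% without it. In HIP it was 87.4, 94.8 and 101 in wt and 90.1, 108 and 116 in Ts65Dn, which overlapped, at 0.17 ± 0.06 (adjusted p = 0.234). With GC content and length removed the differences were 0.10 in HIP and 0.093 in EC. In HIP no member had groups without overlap, where 1.69% of all genes did, or without replicate 3, where 3.57% did. Psma6, an alpha subunit, was 92.8, 96.4 and 102 CPM in wt HIP and 85.2, 91.3 and 92.8 in Ts65Dn HIP, at -0.10 ± 0.04 (adjusted p = 0.191).

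**Figure D5:**
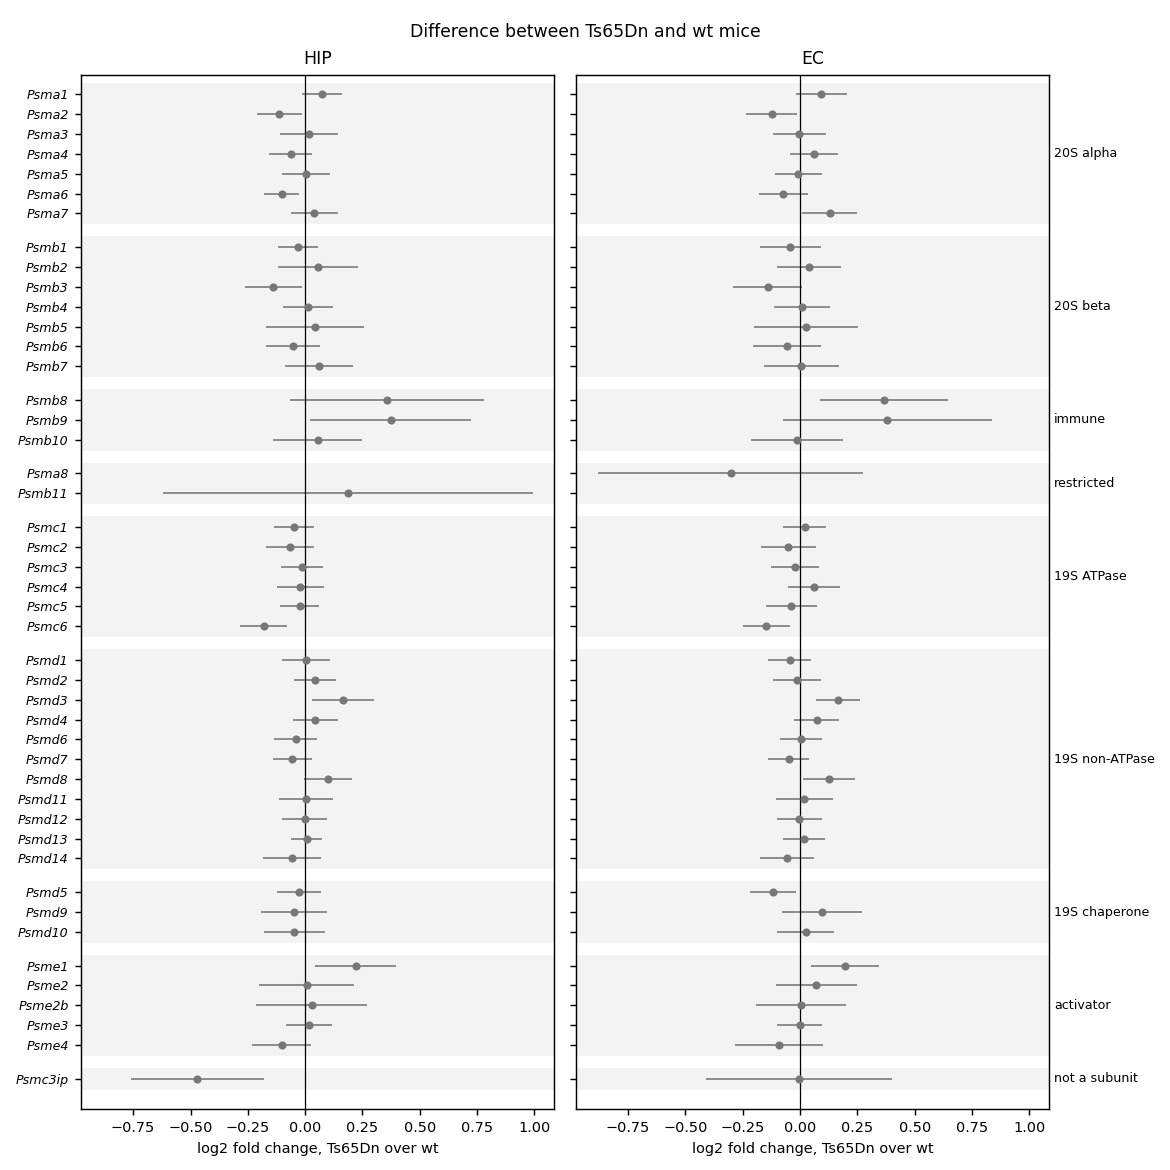
Log2 fold change of Ts65Dn over wt (x axis) with its 95% confidence interval for each member tested (y axis, grouped by role) in HIP (left) and EC (right). All points are grey, since no member was called. The intervals of the core and cap genes are narrow and most include 0, while Psmc6 in HIP and Psmd3 in EC are among those that do not. Those of Psmb8, Psmb9, Psma8, Psmb11 and Psmc3ip are wide.

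Psmb8 and Psmb9 had the largest positive fold changes by genotype in each region of all members, without a call. Psmb8 was 1.59, 2.69 and 2.81 CPM in wt HIP and 1.93, 3.38 and 3.95 in Ts65Dn HIP. The groups overlapped, and the log2 difference was 0.36 (95% interval -0.066 to 0.78, adjusted p = 0.433). In EC Psmb8 was 1.82, 2.30 and 3.19 in wt and 2.77, 3.09 and 3.25 in Ts65Dn, at 0.37 (95% interval 0.085 to 0.65, adjusted p = 0.146). Psmb8 in EC was called in 1 of 12 fits that left out a mouse. That fit left out wt replicate 2, the highest wt EC library, at 0.47 (edgeR adjusted p = 0.0463). DESeq2 with all mice did not call it (adjusted p = 0.104). Neither did edgeR after removal of a trend on GC content and gene length, at 0.31 (adjusted p = 0.299).

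Psmb9 was 1.21, 1.44 and 1.99 CPM in wt HIP and 1.57, 1.88 and 2.59 in Ts65Dn HIP, at 0.37 (95% interval 0.022 to 0.72, adjusted p = 0.309). In EC it was 0.613, 1.36 and 1.58 in wt and 1.1, 1.69 and 2.27 in Ts65Dn, at 0.38 (95% interval -0.077 to 0.84, adjusted p = 0.359). With 1 mouse left out the EC difference of Psmb9 ranged from 0.24 to 0.48, and the 0.24 was without wt replicate 4, the library at 0.613 CPM, none of them called. Psmb10 was at 0.055 in HIP (95% interval -0.14 to 0.25) and -0.013 in EC (-0.21 to 0.19). Without replicate 3 the differences of Psmb8 were 0.38 and 0.35 and those of Psmb9 were 0.39 and 0.38 in HIP and EC, none of them called.

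Neither gene of the 11S activator was called. Psme1 was 17.6, 20.05 and 22.0 CPM in wt HIP and 20.8, 21.9 and 28.3 in Ts65Dn HIP, at 0.22 ± 0.08 (adjusted p = 0.233). In EC it was 20.7, 22.0 and 26.4 in wt and 25.1, 27.0 and 28.3 in Ts65Dn, at 0.20 ± 0.07 (adjusted p = 0.140). The groups overlapped in both regions. Psme2 was 11.02, 14.4 and 15.7 in wt HIP and 12.5, 13.5 and 16.1 in Ts65Dn HIP, at 0.0070 (95% interval -0.20 to 0.21), and at 0.071 (-0.11 to 0.25) in EC.

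None of the constitutive catalytic subunits was called by genotype. Psmb5 was at 0.043 (95% interval -0.17 to 0.26) in HIP and 0.026 (-0.20 to 0.25) in EC. Psmb6 was at -0.052 (-0.17 to 0.067) and -0.056 (-0.21 to 0.093), and Psmb7 at 0.062 (-0.086 to 0.21) and 0.0049 (-0.16 to 0.17). Differences within these intervals were not excluded. The intervals of Psmc5 (-0.11 to 0.059 and -0.15 to 0.073) and Psmd2 (-0.048 to 0.14 and -0.12 to 0.091) were narrower. Psmc3ip was 1.69, 2.38 and 2.68 CPM in wt HIP and 1.45, 1.62 and 1.97 in Ts65Dn HIP, at -0.47 ± 0.14 (adjusted p = 0.123), and -0.0056 ± 0.19 in EC.

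Among genes around the proteasome Psmg1 was called in both regions. Over all genes tested, 1.04% were called by genotype in HIP and 2.5% in EC, which also applies to the lists below. Psmg1, an assembly chaperone of the alpha ring, lies in the triplicated chromosome 16 segment. It was 6.59, 6.94 and 7.77 CPM in wt HIP and 7.78, 10.9 and 12.4 in Ts65Dn HIP, at 0.59 ± 0.10 (adjusted p = 0.0167), and 0.55 ± 0.09 in EC (adjusted p = 0.0111). Of 24 assembly and associated factors the only others called were Adrm1, a ubiquitin receptor of the cap, higher in HIP at 0.24 ± 0.05 (adjusted p = 0.0482), and Ube3a, a ubiquitin ligase, lower in EC at -0.38 ± 0.09 (adjusted p = 0.0343). The call of Psmg1 was made with each of 12 mice left out, that of Adrm1 in 1 of 12 such fits (without Ts65Dn replicate 3) and that of Ube3a in 4 of 12. Of the 8 genes listed for proteasome transcription 0 were called, with Nfe2l1 at 0.045 and 0.011. Of 12 interferon signalling genes, Ifnar1, Ifnar2 and Ifngr2 were higher in both regions and Il10rb in HIP, and these receptor genes are triplicated. All of them were called without the mouse labelled Ts65Dn replicate 3, at 0.60 to 0.82.

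Of 12 MHC class I loading genes 0 were called in HIP and 1 in EC, Nlrc5, a transactivator of MHC class I genes. It was 0.10, 0.24 and 0.37 CPM in wt EC and 0.32, 0.57 and 0.96 in Ts65Dn EC, at 1.34 ± 0.33 (adjusted p = 0.0451), called in 3 of 12 fits that left out a mouse. Tap1, which faces Psmb9 across a shared promoter, was at 0.43 ± 0.15 in HIP (adjusted p = 0.205) and 0.33 ± 0.11 in EC (adjusted p = 0.108). H2-D1, in the same MHC region of chromosome 17 as Psmb8 and Psmb9, varied from 4.56 to 23.1 CPM among wt HIP libraries and from 6.48 to 46.2 among Ts65Dn HIP libraries. The part of such variation in the levels of Psmb8 and Psmb9 was not tested. Of the cell type and region marker lists, P2ry12 of the microglia list was the 1 gene called by genotype, lower at -0.27 in HIP and -0.45 in EC, called in 4 and 9 of 12 such fits and in neither region after removal of a trend on GC content and gene length. The summed microglia markers were 515 to 585 CPM in wt HIP and 472 to 569 in Ts65Dn HIP.

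The effect of genotype was not shown to differ between regions for any member. In the interaction test with a term for each mouse, 0 of 45 members and 0 of 18109 genes were called by edgeR's quasi-likelihood test. An unadjusted p under 0.05 was found for 1 member, Psma4 with a log2 difference of -0.13, where 4.1% of all genes had one. DESeq2 called no member either.

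Within a group the members had lower coefficients of variation than all genes with the same minimum, given as a description without a test. For the 39 members with a mean of at least 10 CPM the median coefficient of variation was 5.08% in wt HIP, 6.32% in Ts65Dn HIP, 5.22% in wt EC and 6.25% in Ts65Dn EC. Over all genes with that mean it was 6.85%, 8.56%, 7.75% and 8.56%. Members and all genes shared only that minimum and were not matched for level, and the part of level in this difference was not tested. The most variable member was Psmb5 in both wt groups, at 14.8% and 17.1%, and the least variable was Psmd7 in wt HIP at 2.00%. Psmb5 shares much of its sequence with pseudogenes, and the part of this in its variation was not tested.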

How the data were processed

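HIP and EC RNA-Seq libraries of 6 wt and 6 Ts65Dn mice were analysed, grouped by the labels. Per the labels libraries were made from polyA RNA with a stranded kit. The methods describe library preparation with a stranded total RNA kit with Ribo-Zero Gold (rRNA removal), and then name polyA RNA as the molecules extracted. The authors aligned single-end reads of 50 bases with Hisat2 to GRCm38 and deposited raw HTSeq-count counts for 55385 genes, without normalization. The authors' own comparison tables (fold changes, p-values) were not used, and 0 count columns lacked a sample.

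Genes were tested with edgeR 4.0.16 (R 4.3.3; quasi-likelihood, filterByExpr, TMM, Benjamini-Hochberg over all genes tested). The mouse was a block in regional and interaction tests, since both regions came from one mouse, and not in genotype tests. p-values of genotype tests measure the spread between mice. Those of regional and interaction tests measure the spread between mice in the difference of HIP and EC. Intervals are 95%. Alternatives were DESeq2 1.42.0, size factors, count filters, blocks, GC content and length, and leaving out each mouse. Methods were also run on simulated counts without mouse effects and with changes larger than most member differences, which does not check small differences. Gene types, exons and overlaps came from GENCODE vM21 (GRCm38), which held 99.6% of the genes, and promoters from RefSeq. Depth, 23128589 to 40476492 counts, limits Psma8 and Psmb11 most, then Psmb9, Psmc3ip and Psmb8.

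Members, lists and tests were chosen with earlier results of these data known. Values are given for immune subunits, their counterparts, Psme1, Psme2 and the 3 members with the lowest adjusted p in each comparison, and called genes are named, up to 12 members and 6 genes of another list a comparison. A list of ubiquitin genes is not reported here.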

Additional observations from a re-analysis of the deposited data

Results flagged for a closer look

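Of 60 groups of 6 libraries tested over 15 named genes, 3 held a library far from the others by Dixon's test, about as many as chance gives (1 in 20 groups). Psmb9 in the EC of wt replicate 4 was 0.613 CPM, where the nearest wt EC library had 1.25. Psmb6 in the HIP of the mouse labelled Ts65Dn replicate 3 was 67.9 CPM, where the nearest had 79.3. Psme2 in the EC of Ts65Dn replicate 6 was 13.4 CPM, where the nearest had 15.3.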

How the results depend on the processing

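Beside the main counts, DESeq2 called 1 member lower in HIP by genotype, and 1 higher and 1 lower in EC, where edgeR called 0. Over all genes DESeq2 called 360 of 17355 lower in HIP, and 494 higher and 647 lower of 17049 in EC. Leaving out each mouse gave 0 to 1 lower calls in HIP and 0 to 1 higher in EC. In wt, a minimum of 10 counts in every library gave 5 higher calls by region, and leaving out each mouse gave 2 to 4 higher and 21 to 25 lower. In Ts65Dn leaving out each mouse gave 11 to 19 lower and 1 to 2 higher. Removing GC content and length gave 29 lower and 2 higher in wt and 25 lower and 1 higher in Ts65Dn. It also moved all genes tested. In wt 6200 of 17196 were then lower and 4444 higher, where the main fit gave 5205 and 5336. In Ts65Dn 5318 of 17314 were lower and 3921 higher, where the main fit gave 4443 and 4612. The causes were not tested.

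The replicate numbers of wt and Ts65Dn belong to different mice, and the correlation of same-numbered deviations was -0.224 to 0.162 in HIP and -0.104 to 0.166 in EC. With a replicate block 0 members were called by genotype in either region, and 29 and 36 genes in all against 181 and 426, and 1 of 6 wt libraries in each region was closest to its own number. Without the replicate block for the mouse, 21 members were lower and 3 higher by region in wt, and 19 and 1 in Ts65Dn. Over all genes 4660 of 17196 were lower and 4837 higher in wt, and 4061 of 17314 and 4289 in Ts65Dn. The interaction without this block again gave 0.

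Some values changed sign. With GC content and length removed, the log2 difference by genotype was -0.0087 for Psmb10 and -0.029 for Psme2 in HIP, and -0.016 for Psmb5 and 0.051 for Psmc6 in EC. By region it was 0.025 for Psmb5 and -0.033 for Psmc6 in wt, and 0.054 and -0.12 in Ts65Dn. Leaving out single mice gave, by genotype in HIP, -0.013 to 0.11 for Psmb5 and -0.050 to 0.051 for Psme2. In the EC it gave -0.092 to 0.032 for Psmb10, -0.034 to 0.091 for Psmb5, -0.032 to 0.051 for Psmb7, -0.10 to 0.075 for Psmc3ip and -0.046 to 0.013 for Psmd2. By region in Ts65Dn it gave -0.048 to 0.13 for Psmb8 and -0.077 to 0.034 for Psmb5. Counting every named gene and alternative, 830 values kept direction and side of the threshold, 41 changed sign, 16 newly passed the threshold and 13 no longer passed it.

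With the longest transcript the median level per kilobase was 45.3 (alpha ring), 54.7 (beta ring), 1.44 (immune subunits), 58.4 (ATPases) and 51.4 (non-ATPases).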
